A study of Mus musculus with 12 samples.

Results

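Endothelial cells read the friction of flowing blood through a set of genes that change with shear stress, and 10 such genes were followed here across cells of the embryonic arteries. They were taken by symbol from a table of 33531 genes: the Kruppel-like factors Klf2, Klf4, Klf6, Klf7 and Klf10, the endothelial nitric oxide synthase Nos3, the vasoconstrictor peptide gene Edn1, its processing enzyme gene Ece1, and the caveolin genes Cav1 and Cav2. All 10 were in the table and all 10 were among the 13278 genes that passed the filter on low values. Polyadenylated RNA was sequenced from 4 sorted populations of B6129S mouse embryos at embryonic day 11.5, 3 pools of cells each. Every embryo carried the Ly6a-GFP transgene, in which regulatory DNA of Ly6a (Sca-1) drives GFP, so GFP reports the activity of that transgene and no population is free of it. Cells came from 122 embryos, from vitelline and umbilical arteries and the dorsal aorta, freed with collagenase. Cluster cells, called HC here, were positive for CD31, CD144, ESAM and c-Kit. Endothelial cells, called EC, were positive for the same endothelial proteins and negative for c-Kit. In all 791000 GFP- EC and 377000 GFP+ EC were sorted, with 413000 GFP- HC and 53000 GFP+ HC. How many cells each pool held is not stated in the labels.

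In cultured endothelium, laminar flow activates a kinase chain of MEKK3, MEK5 and ERK5, which acts through MEF2 factors to raise KLF2 and KLF4. These factors in turn raise nitric oxide synthase and thrombomodulin, and flow of this kind is known to lower endothelin-1. Caveolae are flask-shaped pits of the endothelial membrane, coated by caveolins and cavins, and caveolin-1 binds and restrains nitric oxide synthase. Blood flow and nitric oxide are known to be needed for blood stem cells to form from arterial endothelium in the embryo.

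The sequences before 3 of the genes are shown because these 3, Klf2, Klf4 and Edn1, were higher in GFP+ than in GFP- cells of both types. RefSeq promoter entries (build GRCm38.p6) matched 8 of the 10 genes by symbol, with 12 annotated starts. Each line gives the 250 bases before the annotated start, 5′ to 3′ on the gene's strand, and capitals mark matches to the motifs named below.
Klf2, chr8:72318812-72319061, plus strand: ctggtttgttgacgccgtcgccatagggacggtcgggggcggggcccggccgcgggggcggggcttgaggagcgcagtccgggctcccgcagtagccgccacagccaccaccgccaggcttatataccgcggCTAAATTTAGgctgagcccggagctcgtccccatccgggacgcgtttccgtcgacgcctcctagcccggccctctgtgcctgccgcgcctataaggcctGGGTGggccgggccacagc
Klf4, chr4:55532476-55532725, minus strand: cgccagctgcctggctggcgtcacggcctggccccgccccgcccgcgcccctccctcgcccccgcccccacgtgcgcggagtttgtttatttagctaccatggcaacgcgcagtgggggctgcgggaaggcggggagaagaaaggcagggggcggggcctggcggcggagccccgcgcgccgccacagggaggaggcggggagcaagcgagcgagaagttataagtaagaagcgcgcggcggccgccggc
Edn1, chr13:42301226-42301475, plus strand: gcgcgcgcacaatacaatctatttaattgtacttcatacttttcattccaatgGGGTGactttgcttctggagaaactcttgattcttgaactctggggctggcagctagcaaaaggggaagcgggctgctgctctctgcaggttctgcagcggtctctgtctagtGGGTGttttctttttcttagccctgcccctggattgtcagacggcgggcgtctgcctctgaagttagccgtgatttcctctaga
Both strands were searched for the box of Kruppel-like factors, CACCC. The AP-1 site was searched as TGANTCA. The GATA factor site was searched as GATAA, and the box of that name before many starts as TATAAA. The MEF2 consensus was searched as well, and no match overlapped another motif in the stretches printed. The Klf2 stretch held 1 MEF2 match, from 118 to 109 bases before the start, where 2.92% of 32851 promoters of this length held any. It also held 1 CACCC match on the opposite strand, and Edn1 held 2, on the opposite strand as well. CACCC was present in 52.0% of all promoters. None of the 5 motifs was found in the 250 bases before Klf4. The bases after that annotated start matched no Klf4 transcript of the GENCODE annotation on either strand. Those after the Klf2 and Edn1 starts did match, so the start of Klf4 is less certain. The stretches of Klf2 and Klf4 were rich in G and C, at 71.2% and 74%, against 50.4% for Edn1 and a median of 52.4% over all promoters. A match of letters is a description and shows no binding. The data hold no measure of binding.

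Levels were given as FPKM, fragments per kilobase of transcript, scaled to the mapped fragments of the library, so they can be compared between genes per length. FPKM summed to between 555675 and 691948 per library, and between 12147 and 12779 genes reached 1 FPKM. The read depth of the libraries is unknown. Changes are log2 fold changes of FPKM + 1 with their standard error, which understates the change of weak genes. Tests were limma fits over 13278 genes, with p-values adjusted by the Benjamini-Hochberg method and a threshold of 0.05. All 4 populations held 15 pan-endothelial markers, none of them at 0 throughout a population, whose FPKM summed to 2796 to 3789 in HC and 3201 to 5152 in EC. The HC also held blood markers (summed FPKM 139 to 606) and macrophage markers (291 to 1765), against 63.1 to 103 and 15.3 to 40.9 in EC. In such sorted pools, fewer cells of a type and less RNA per cell cannot be told apart.

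**Figure D1:**
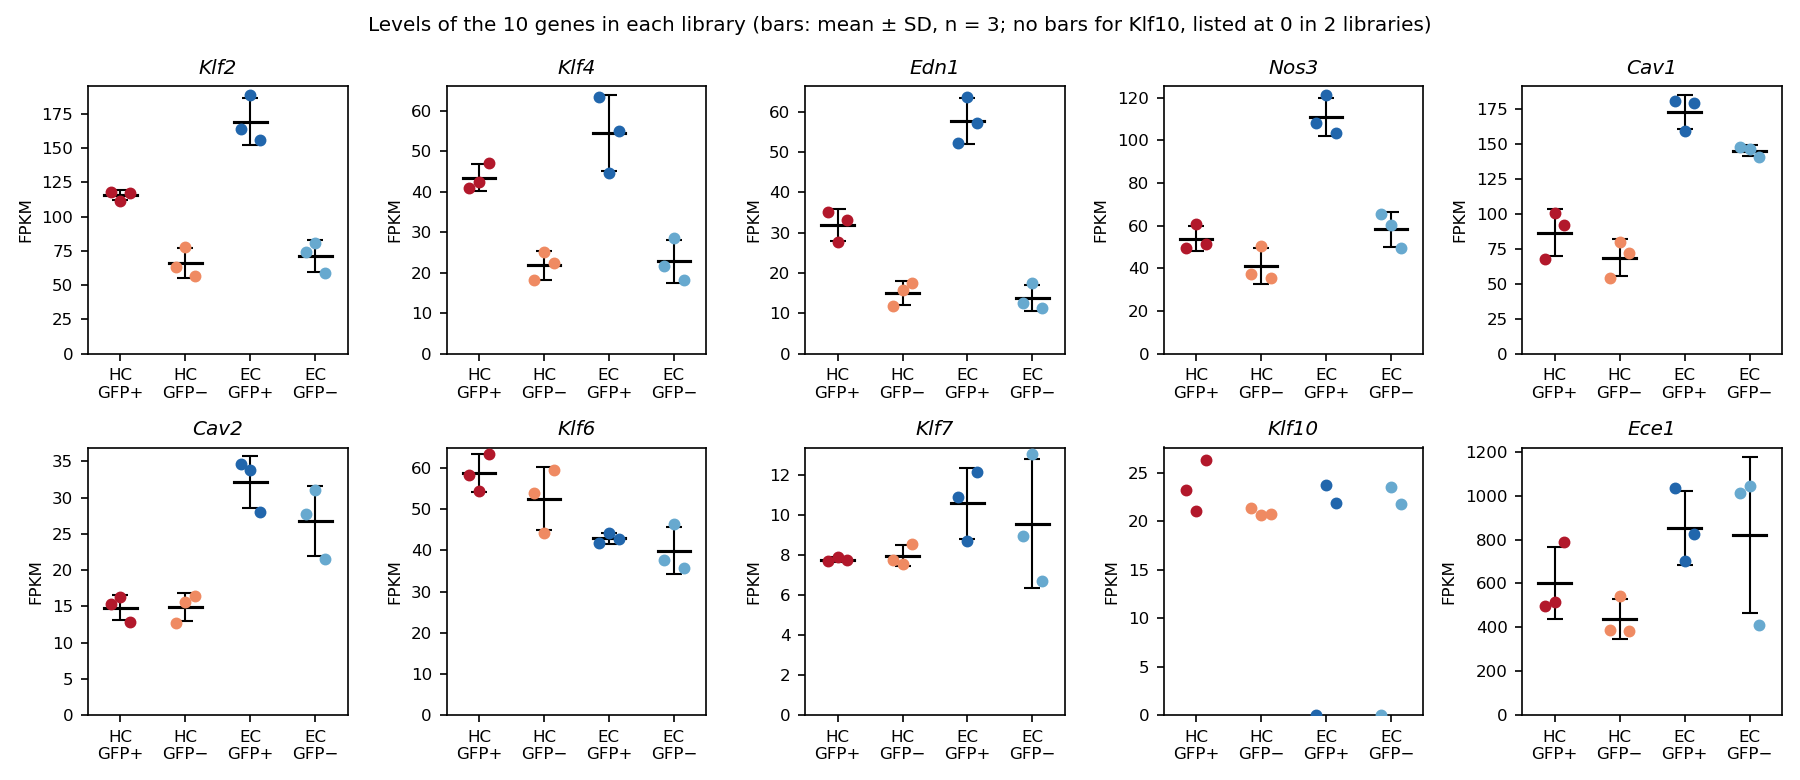
FPKM (vertical axis, linear, from 0) of each of the 10 genes in the 12 libraries, by population (horizontal axis); points are libraries and bars the mean ± SD of 3, with no bars for Klf10. Klf2, Klf4 and Edn1 stand higher in GFP+ than in GFP- libraries of both cell types, whereas Cav1 and Cav2 stand higher in EC than in HC.

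The 10 genes fell into 3 patterns. Klf2, Klf4 and Edn1 followed GFP in both cell types. Cav1 and Cav2 followed the cell type at either GFP state. Nos3 was highest in GFP+ EC, and Klf6, Klf7, Klf10 and Ece1 varied little or unevenly. Between GFP+ and GFP- HC, 3 of the 10 rose and none fell, where 2.98% of all tested genes rose and 1.28% fell. Between GFP+ and GFP- EC, 4 rose and none fell, where 6.96% of all tested genes rose and 6.51% fell. Ranges did not overlap for 3 genes in HC (13% of all tested genes were wholly higher there) and for 5 in EC (14.8%). The median change of the 10 genes was 0.36 in HC and 0.26 in EC, against 0.0014 and -0.034 over all tested genes. Between HC and EC, 5 of the 10 were lower in HC and 1 was higher among GFP+ cells (6.09% and 8.21% of all tested genes), and the ranges of 6 were wholly lower and of 1 wholly higher (13.8% and 19.6%). Among GFP- cells 2 were lower and none higher (1.93% and 2.36%, together 4.29%), and the same 2 were wholly lower (10.4%).

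Markers of other cells moved with GFP as well. Of 13 blood markers 7 rose in HC, with a median of 1.15 (5 to 7 without single libraries, 4 with a mean FPKM of 5 or more), and their summed FPKM was 368 to 606 with GFP and 139 to 252 without. In EC 2 rose, with sums of 89.6 to 103 against 63.1 to 78.7. Of 18 smooth muscle and mesenchyme markers none passed in HC and 1, Lum, fell in EC, with medians of -0.79 and -0.59 and 5 and 6 at an unadjusted p under 0.05. With the replicate block 5 fell in HC and 6 in EC, and without EC GFP- replicate 2 the EC count was 8. Their sums overlapped, at 313 to 669 against 517 to 1495 in HC and 316 to 601 against 338 to 1422 in EC. Of all tested genes, 2.98% rose and 1.28% fell with GFP in HC, and 6.96% rose and 6.51% fell in EC. The medians over all genes were 0.0014 and -0.034. The part of either list in the changes of the 10 genes was not tested.

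Klf2 encodes the factor most closely tied to laminar flow in endothelium, and it was the most abundant of the 17 Klf genes in the table. It stood at 118, 111 and 117 FPKM in the GFP+ HC, at 63.1, 78.1 and 56.4 in the GFP- HC, at 164, 189 and 156 in the GFP+ EC, and at 74.5, 80.8 and 58.6 in the GFP- EC. The GFP+ libraries lay above every GFP- library in both cell types. Klf2 rose 1.75-fold with GFP in HC (log2 0.81 ± 0.14, limma adjusted p = 0.00638) and 2.38-fold in EC (log2 1.24 ± 0.14, adjusted p = 0.000189). The order of means was GFP+ EC, GFP+ HC, GFP- EC and GFP- HC, and the last 2 overlapped (log2 -0.11 ± 0.14, adjusted p = 0.720). Among GFP+ cells Klf2 was lower in HC than in EC by log2 -0.54 ± 0.14 (adjusted p = 0.0211). That call ended when any of 5 libraries was left out: EC GFP+ replicates 1 and 2 (-0.57 and -0.46) and all 3 of HC GFP+ (-0.56, -0.52 and -0.56).

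Klf4 encodes a related factor that shares many endothelial targets with KLF2. It stood at 41.0, 42.4 and 47.2 FPKM in the GFP+ HC, at 18.1, 25.1 and 22.4 in the GFP- HC, at 63.6, 44.8 and 55.03 in the GFP+ EC, and at 21.7, 28.6 and 18.2 in the GFP- EC. Again no GFP- library reached a GFP+ library of the same cell type. Klf4 rose 1.99-fold with GFP in HC (log2 0.97 ± 0.17, limma adjusted p = 0.00916) and 2.39-fold in EC (log2 1.23 ± 0.17, adjusted p = 0.00107). HC and EC overlapped at either GFP state, with differences of log2 -0.30 (95% interval -0.69 to 0.08) among GFP+ and -0.05 (-0.43 to 0.33) among GFP- cells.

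The level of Klf2 relative to Klf4 overlapped between populations. The ratio within a library was 3.21 ± 0.882 in EC with and 3.16 ± 0.311 in EC without GFP, and 2.66 ± 0.201 and 3.04 ± 0.491 in such HC (SD, n = 3), and each range overlapped the others. Klf2 took 45.0% ± 3.81 of the summed FPKM of the 17 Klf genes in EC with GFP and 31.2% ± 4.28 in EC without it, and 35.4% ± 0.263 and 27.6% ± 3.76 in such HC (SD, n = 3). The GFP+ EC lay apart from every other population in this share, from 41.8% to 49.2%. The summed FPKM of the Klf genes was 371 to 383 in GFP+ EC and 314 to 333 in GFP+ HC, against 209 to 262 in the GFP- libraries. These sums and shares include Klf10, which is listed at 0 in EC GFP+ replicate 1 and EC GFP- replicate 1. The lowest sums of the 2 EC populations, 371 and 209, were those of these libraries. If the zeros are failed estimates, these sums are too low and the Klf2 shares there too high.

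**Figure D2:**
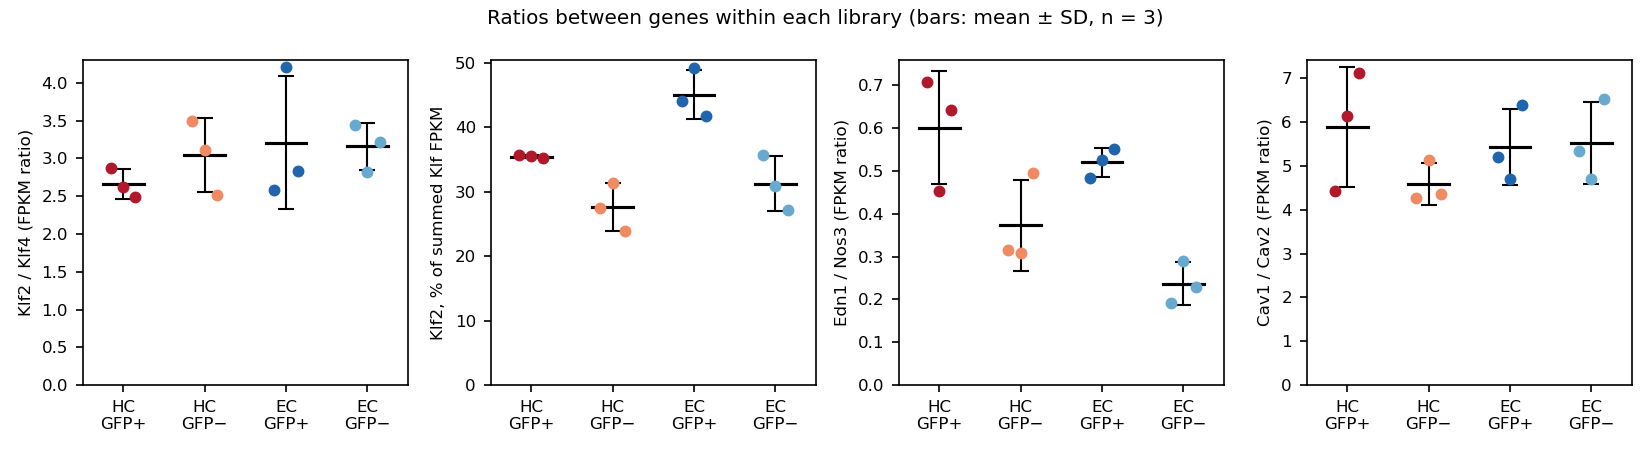
Ratios of FPKM within each library and the Klf2 share of summed Klf FPKM (vertical axes, linear, from 0) by population (horizontal axes); points are libraries and bars the mean ± SD of 3. The Klf2 to Klf4 and Cav1 to Cav2 ratios overlap between all populations, and Edn1 relative to Nos3 is lowest in GFP- EC.

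Klf6, a factor induced by vascular injury, did not follow GFP. It stood at 58.4, 54.4 and 63.5 FPKM in the GFP+ HC, at 54.0, 44.2 and 59.5 in the GFP- HC, at 41.8, 44.3 and 42.7 in the GFP+ EC, and at 37.7, 46.5 and 35.7 in the GFP- EC. The GFP+ HC lay above all 6 EC libraries. The GFP changes were log2 0.17 ± 0.12 in HC and 0.11 ± 0.12 in EC (limma adjusted p = 0.555 and 0.599). Of the 10 genes only Klf6 was called higher in HC than in EC, which held for GFP+ cells (log2 0.44 ± 0.12, adjusted p = 0.0318). That call ended when any of the 3 EC GFP+ libraries (0.42, 0.46 and 0.44) or HC GFP+ replicates 1 and 3 (0.45 and 0.39) was left out, with no filter (0.44), with equal FPKM sums (0.42) and with a replicate block (0.44). Among GFP- cells the difference was 0.39 ± 0.12 (adjusted p = 0.105). It passed when replicate 2 of either population was left out (0.50 each).

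Klf7 was the weakest of the 10 genes, with FPKM of 7.69, 7.91 and 7.73 for the HC with GFP, then 7.78, 7.56 and 8.55 for those without it. In EC it stood at 10.9, 8.69 and 12.2 in the GFP+ and 8.97, 13.1 and 6.73 in the GFP- libraries. No comparison of Klf7 passed, although the GFP+ EC did not overlap the GFP+ HC (log2 -0.39 ± 0.19, limma adjusted p = 0.204). In that comparison the ranges of 13.8% of all tested genes were wholly lower in HC. Klf10, a gene first known as induced by TGF-beta, is listed at 0 in EC GFP+ replicate 1 and EC GFP- replicate 1. In the other 10 libraries it lay between 20.6 and 26.3 FPKM, with a median of 21.8. A 0 beside such values may be a failed estimate. Treated as missing, the 2 zeros left Klf10 with changes between -0.11 and 0.16 in the 4 group comparisons, and none passed.

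Edn1 encodes preproendothelin-1, the precursor of the vasoconstrictor endothelin-1. It had the largest GFP change of the 10 genes in either cell type. It stood at 35.1, 27.6 and 33.1 FPKM in the GFP+ HC, at 11.7, 15.6 and 17.6 in the GFP- HC, at 52.3, 63.7 and 57.2 in the GFP+ EC, and at 12.5, 17.5 and 11.3 in the GFP- EC. The GFP+ EC lay highest and the GFP+ HC next, while the GFP- libraries of HC and EC overlapped. Edn1 rose 2.13-fold with GFP in HC (log2 1.05 ± 0.17, limma adjusted p = 0.00599) and 4.201-fold in EC (log2 2.01 ± 0.17, adjusted p = 3.61e-05). Among GFP+ cells it was lower in HC than in EC by log2 -0.84 ± 0.17 (adjusted p = 0.00851). Among GFP- cells the difference was 0.12 ± 0.17 (adjusted p = 0.766).

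Edn1 thus rose beside Klf2, although flow through KLF2 is known to lower it in cultured endothelium. Of the other genes of the endothelin route (9 in the table, 7 tested), 1 fell with GFP in HC and 1 rose in EC. Between the cell types 1 was lower in GFP+ HC and 1 higher in GFP- HC. Over all tested genes 2.98% rose and 1.28% fell with GFP in HC, and 6.96% rose and 6.51% fell in EC. In GFP+ HC 6.09% of all tested genes were lower than in EC, and in GFP- HC 2.36% were higher. The medians with GFP were -0.28 in HC and -0.46 in EC, against 0.0014 and -0.034 over all genes. The receptor gene Ednrb stood at 44.5 ± 3.94 and 35.6 ± 1.33 FPKM in EC with and without GFP, and at 51.1 ± 3.88 and 47.4 ± 6.51 in such HC (SD, n = 3), and the other receptor gene, Ednra, at 2.78 to 5.14 on average. Both receptor genes are named outside the rule, after their values were seen. Furin, a protease that trims preproendothelin, was lower in HC when GFP+ cells were compared (log2 -0.56) and rose with GFP in EC (37.5 ± 0.488 against 28.0 ± 2.58 FPKM, log2 0.41 ± 0.09, adjusted p = 0.00936). Kel, a peptidase of the same family as ECE1 and a red cell antigen, fell with GFP in HC (log2 -2.35 ± 0.31, adjusted p = 0.00159), and its level in GFP- HC exceeded that in GFP- EC (log2 2.02). Erythroid markers moved with it: 10 of 10 tested fell with GFP in HC (8 to 10 without single libraries) and 7 of 10 in EC (2 without EC GFP+ replicate 1, EC GFP+ replicate 3 or EC GFP- replicate 3, 3 with no filter and 1 with only the groups compared). With a mean FPKM of 5 or more, 5 fell in HC. The summed FPKM of the list was 778 to 1066 in GFP+ and 5838 to 9048 in GFP- HC, and 877 to 2252 in GFP+ and 3148 to 7246 in GFP- EC, with Tspo2 at 0 in every GFP+ HC library. Their part in the changes of Klf2, Klf4, Nos3 and Edn1 was not tested.

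Ece1 encodes the membrane protease that releases endothelin-1 from its precursor, and it was by far the most abundant of the 10 genes. Its mean ranked 97 among all genes in GFP+ EC and 173 in GFP- HC. It stood at 495, 517 and 790.2 FPKM in the GFP+ HC, at 388, 542 and 384 in the GFP- HC, at 1036, 701 and 823 in the GFP+ EC, and at 1010.0, 1044 and 409.7 in the GFP- EC. The GFP- EC libraries differed 2.55-fold among themselves. No comparison of Ece1 passed. The nearest was HC against EC among GFP- cells (log2 -0.81 ± 0.33, limma adjusted p = 0.212), which passed without EC GFP- replicate 3 (-1.25). Per library there was 15.1 ± 4.44 times as much Ece1 as Edn1 in GFP+ EC and 59.0 ± 22.3 times as much in GFP- EC (SD, n = 3), with no overlap.

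Nos3 encodes the endothelial enzyme that makes nitric oxide from arginine. It stood at 49.6, 60.7 and 51.5 FPKM in the GFP+ HC, at 37.3, 50.6 and 35.5 in the GFP- HC, at 108, 121 and 104 in the GFP+ EC, and at 65.3, 60.3 and 49.3 in the GFP- EC. The GFP+ EC lay above every other library, while the neighbours below them overlapped. Nos3 rose 1.90-fold with GFP in EC (log2 0.92 ± 0.14, limma adjusted p = 0.00198). In HC the change was log2 0.40 (95% interval 0.08 to 0.71, adjusted p = 0.183). Among GFP+ cells Nos3 was 2.06-fold lower in HC than in EC (log2 -1.03 ± 0.14, adjusted p = 0.00103). The GFP- cells differed by -0.50 ± 0.14, which missed the threshold (adjusted p = 0.0810). With a replicate block that value passed (adjusted p = 0.0299), and it passed without HC GFP- replicate 2 (-0.66).

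The ratio of Edn1 to Nos3 within a library was given no test. It was 0.483 to 0.552 in GFP+ EC and 0.191 to 0.290 in GFP- EC. In HC it was 0.454 to 0.707 with GFP and 0.309 to 0.496 without, and the ranges overlapped. Nos3 overlaps Atg9b, on the opposite strand, in the GENCODE M21 annotation. Whether counting used strand is not given by any source used, so reads from the stretch they share may not be told apart. Atg9b lay between 0.917 and 3.25 FPKM. Opposite-strand genes also overlap Klf7, Edn1, Ece1, Cav1 and Cav2 in that annotation.

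Among genes that serve nitric oxide synthesis, 2 of 25 tested rose with GFP in HC and 1 fell (2.98% and 1.28% of all tested genes), and 2 rose and 4 fell in EC (6.96% and 6.51%). Without single libraries the counts were 2 and 0 to 1 in HC. In EC they were 1 to 2 and 2 to 5, with the fewest falls, 2, for each of replicates 1 and 3 of both EC populations and of the GFP- HC, and for HC GFP+ replicate 1, left out alone. The fall of Nos2 in HC was lost for replicates 1 and 3 of the GFP+ and 1 and 2 of the GFP- libraries (-0.84 to -0.67). The EC rises numbered 1 without any of 8 libraries, and Gch1 was the gene lost. The EC falls numbered 1 with equal FPKM sums or only the groups compared, and 2 with no filter or a mean FPKM of 5 or more. Ddah1, whose enzyme clears an inhibitor of nitric oxide synthase, rose in HC (16.9 ± 0.225 against 11.1 ± 1.17 FPKM, log2 0.56 ± 0.09, limma adjusted p = 0.00491). It rose in EC too (30.9 ± 1.14 against 17.3 ± 1.48 FPKM, log2 0.81 ± 0.09, adjusted p = 0.000237). Gch1, the first enzyme of tetrahydrobiopterin synthesis, a cofactor of the synthase, rose in HC (4.90 ± 0.444 against 2.28 ± 0.263 FPKM, log2 0.85 ± 0.12, adjusted p = 0.00241). Nos2, the inducible synthase, went the other way and fell in EC (2.55 ± 0.365 against 5.78 ± 0.670 FPKM, log2 -0.94 ± 0.17, adjusted p = 0.00492). Cygb (log2 -0.79), a globin that scavenges nitric oxide, and Calm2 (log2 -0.20), a calmodulin gene, fell in EC and are named outside the rule. The list medians were -0.16 in HC and -0.23 in EC, below 0 unlike Ddah1 and Gch1.

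**Figure D3:**
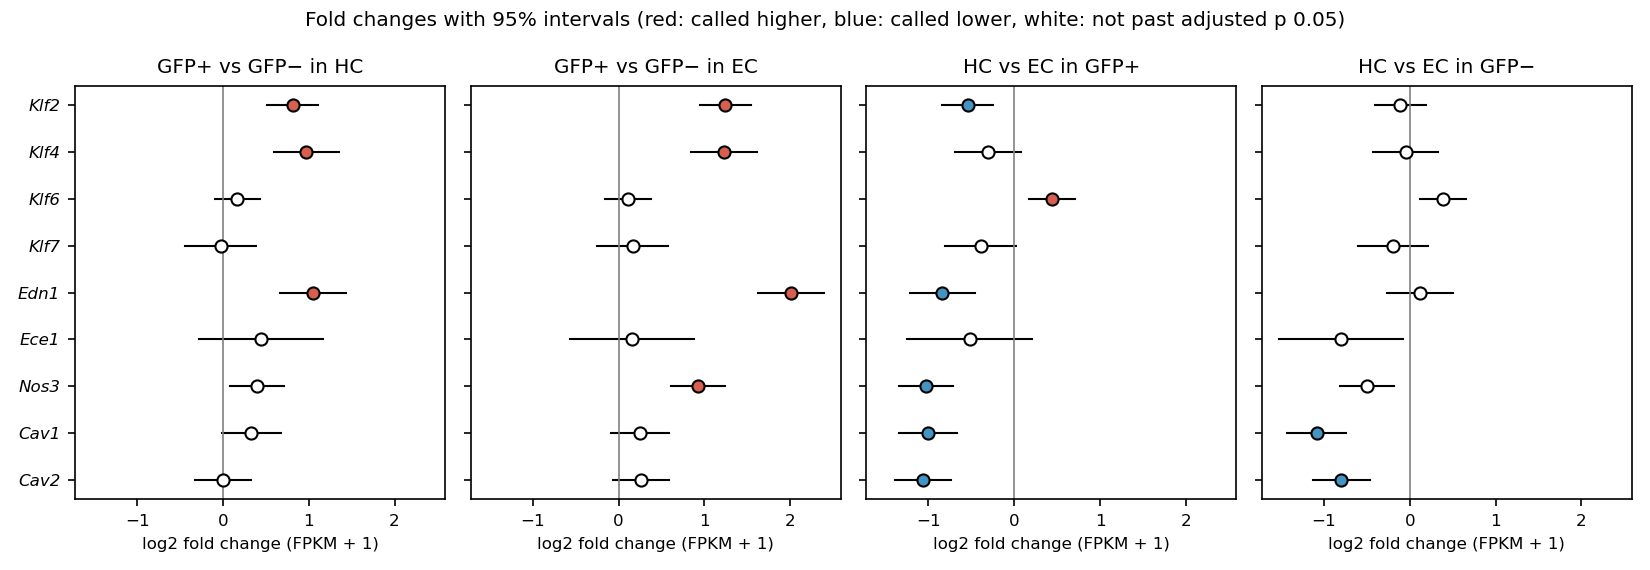
Log2 fold changes of FPKM + 1 (horizontal axes) with 95% intervals for 9 of the genes (rows) in 4 comparisons; red points were called higher, blue lower and white points did not pass. Klf10 is left out because of its zeros. Red points are Klf2, Klf4 and Edn1 in HC and these with Nos3 in EC, and Cav1 and Cav2 are blue in both comparisons of HC with EC.

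Cav1, the main coat protein of caveolae, and Cav2, its partner, differed by cell type. Cav1 stood at 67.6, 100.1 and 91.7 FPKM in the GFP+ HC, at 54.1, 79.96 and 71.5 in the GFP- HC, at 180.3, 159 and 179 in the GFP+ EC, and at 148, 146 and 140.5 in the GFP- EC. Every EC library lay above every HC library. Cav1 was 1.997-fold lower in HC among GFP+ cells (log2 -1.01 ± 0.15, limma adjusted p = 0.00169) and 2.11-fold lower among GFP- cells (log2 -1.09 ± 0.15, adjusted p = 0.00571). Its GFP changes were log2 0.33 (95% interval -0.01 to 0.67) in HC and 0.25 (-0.09 to 0.59) in EC, and neither passed (adjusted p = 0.310 and 0.323). In EC the GFP+ and GFP- ranges did not overlap, as for 14.8% of all tested genes that were wholly higher.

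Cav2 stood at 15.3, 16.3 and 12.9 FPKM in the GFP+ HC, at 12.7, 15.6 and 16.4 in the GFP- HC, at 34.6, 33.8 and 28.0 in the GFP+ EC, and at 27.7, 31.1 and 21.5 in the GFP- EC. Again all EC libraries lay above all HC libraries. Cav2 was 2.17-fold lower in HC among GFP+ cells (log2 -1.07 ± 0.15, limma adjusted p = 0.00102) and 1.80-fold lower among GFP- cells (log2 -0.80 ± 0.15, adjusted p = 0.0157). The second call ended without EC GFP- replicate 1 (-0.77) or HC GFP- replicate 1 (-0.69) and with only those groups in the fit (-0.80). Per library there was 4.26 to 7.12 times as much Cav1 as Cav2, with ranges that overlapped between all populations. Pan-endothelial markers were lower in HC too, 11 of 15 among GFP+ cells with a median of -0.58 (8 to 12 without single libraries). Among GFP- cells 2 of 15 were lower, with a median of -0.20. That count was 4 with the replicate block, and 0 with no filter, equal FPKM sums, quantile normalization or only the groups compared. It was 5 without HC GFP- replicate 2, and 0 without any other library but EC GFP- replicate 3 and HC GFP+ replicates 2 and 3. Blood markers were higher in HC, 12 of 13 among GFP+ and 9 of 13 among GFP- cells (3 without HC GFP- replicate 1). Macrophage markers were higher too, 12 of 12 in each (8 in the second without that library). The part of either in the lower caveolins was not tested. Of the smooth muscle and mesenchyme markers 0 of 18 passed between HC and EC at either GFP state with limma, with 0 at an unadjusted p under 0.05. Their summed FPKM varied widely within the GFP- populations, from 517 to 1495 in HC and from 338 to 1422 in EC. The part of such cells in the caveolin levels was not tested. Over all tested genes 6.09% were lower and 8.21% higher in GFP+ HC, and 1.93% and 2.36% in GFP- HC.

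Cavins and other genes of the caveola differed between the GFP+ cells of the types. There 6 of 13 tested were lower in HC and none higher (6 lower whichever library was left out). Over all tested genes 6.09% were lower and 8.21% higher. The median of the list was -0.33 against 0.052 over all genes. Ptrf, which encodes cavin-1, was at 79.5 ± 4.79 against 162 ± 17.9 FPKM (log2 -1.01 ± 0.12, limma adjusted p = 0.000393). Sdpr, which encodes cavin-2, was at 24.9 ± 0.784 against 47.4 ± 4.14 FPKM (log2 -0.90 ± 0.11, adjusted p = 0.000461). Ehd2, an ATPase at the neck of caveolae, was lower by log2 -0.71 ± 0.10 (adjusted p = 0.00125). Among GFP- cells Prkcdbp (cavin-3, log2 -0.59) and Ptrf (log2 -0.58) were lower and Ehd3 (log2 0.62) higher. Of all tested genes 1.93% were lower and 2.36% higher there. The 2 lower calls became 0 without EC GFP- replicate 1, HC GFP- replicate 1 or HC GFP- replicate 3 and 4 without HC GFP- replicate 2. The call of Ehd3 ended without any of 9 libraries. It also ended with the replicate block (adjusted p = 0.0629). The 2 lower calls were 0 with no filter or only the groups compared, and 1 with equal sums or quantile normalization. The gap between HC and EC was not shown to differ with GFP state: by limma 0 of 13 genes passed that test, with 6 at an unadjusted p under 0.05 and a median of -0.34.

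Sdpr also followed GFP, unlike Cav1 and Cav2 in the calls. It rose in HC (24.9 ± 0.784 against 13.4 ± 1.93 FPKM, log2 0.86 ± 0.11, limma adjusted p = 0.00121) and in EC (47.4 ± 4.14 against 16.2 ± 1.53 FPKM, log2 1.49 ± 0.11, adjusted p = 1.04e-05). Plvap, the protein of the diaphragm that spans caveolae, rose in EC (1044 ± 1.57 against 708 ± 87.5 FPKM, log2 0.57 ± 0.12, adjusted p = 0.0108). Ehd4 rose in EC too (log2 1.01). In all, 1 of 13 caveola genes rose with GFP in HC and 3 in EC (2.98% and 6.96% of all tested genes). None fell, and without single libraries the EC count was 2 to 4. The EC count was 7 with equal FPKM sums and 5 with quantile normalization.

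The GFP changes were larger in EC than in HC for Klf2, Klf4, Nos3 and Edn1, but the difference itself did not pass for any of the 10 genes with limma. It reached an unadjusted p under 0.05 for 3 of them, and 0.527% of all tested genes passed. For Edn1 the HC change was smaller by log2 -0.96 (95% interval -1.50 to -0.42, adjusted p = 0.128). For Nos3 the difference was -0.53 (-0.98 to -0.08, adjusted p = 0.345), for Klf2 -0.43 (-0.85 to -0.01, adjusted p = 0.423) and for Klf4 -0.26 (-0.80 to 0.28, adjusted p = 0.769). The comparisons in HC and EC use separate libraries, whereas GFP+ EC enter both the GFP comparison in EC and the cell type comparison among GFP+ cells.

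Genes that respond to flow or to KLF2 and KLF4, from a list that leaves out the 10, were followed beside them. With GFP in EC 12 of 34 tested rose and 1 fell (12 to 14 and 0 to 1 without single libraries). The median was 0.20 against -0.034 over all genes. The EC rises numbered 10 with a mean FPKM of 5 or more and 17 with equal FPKM sums. The EC falls numbered 0 with either of these, no filter, quantile normalization or only the groups compared. In HC 6 rose and 2 fell (5 to 9 and 0 to 2), with a median of 0.19 against 0.0014. Over all tested genes 6.96% rose and 6.51% fell in EC, and 2.98% rose and 1.28% fell in HC. Thbd, which encodes the anticoagulant receptor thrombomodulin, a known KLF2 target, rose in HC (41.5 ± 1.40 against 18.9 ± 1.59 FPKM, log2 1.10 ± 0.08, limma adjusted p = 4.31e-05). It rose in EC too (63.0 ± 0.946 against 27.2 ± 2.53 FPKM, log2 1.19 ± 0.08, adjusted p = 9.14e-06). Ace, the angiotensin-converting enzyme, rose in EC (13.3 ± 1.52 against 1.63 ± 0.362 FPKM, log2 2.45 ± 0.18, adjusted p = 1.04e-05). Smad6, an inhibitor of BMP signalling, rose in EC (51.7 ± 2.43 against 18.3 ± 2.30 FPKM, log2 1.46 ± 0.11, adjusted p = 1.06e-05). Gja5, the arterial gap junction protein connexin 40, had the largest change of the list in either cell type. In HC it had 33.8 ± 9.25 FPKM with GFP and 5.88 ± 1.04 without (log2 2.32, adjusted p = 3.33e-05) and in EC 269 ± 8.02 and 40.4 ± 3.93 (log2 2.71, adjusted p = 3.85e-06). The difference of the GFP effects passed for 2 genes of this list, Smad6 (log2 -1.08, adjusted p = 0.0118) and Ace (log2 -1.64, adjusted p = 0.0180). It passed for 0.527% of all tested genes.

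The 2 that fell in HC were Angpt2 (log2 -0.88), a ligand that loosens endothelium, and Adm (log2 -0.68), the latter named outside the rule, and 1 or none of these calls stood without any of 10 libraries. Adm, the vasodilator adrenomedullin, was the gene that fell in EC (log2 -0.61 ± 0.17, limma adjusted p = 0.0397). Its call ended without 8 of the 12 libraries, among them every GFP+ EC (-0.51, -0.68 and -0.63), EC GFP- replicates 1 and 2 (-0.61 and -0.46), HC GFP+ replicate 2 and HC GFP- replicates 1 and 3 (-0.61 each). Between HC and EC, 16 of 34 were lower in HC and 3 higher among GFP+ cells (15 to 18 and 2 to 4). Among GFP- cells 8 were lower (5 without HC GFP- replicate 1, at most 10) and 1 higher. Over all tested genes 6.09% were lower and 8.21% higher among GFP+ cells, and 1.93% and 2.36% among GFP- cells. Gja4, the arterial connexin 37, had 23.1 ± 4.03 against 186 ± 13.8 FPKM among GFP+ cells (log2 -2.97, adjusted p = 2.42e-06). Id1, a target of BMP signalling, was lower by log2 -1.10 and -0.87 among GFP+ and GFP- cells, and Gja5 by -2.99 and -2.60. Hmox1, heme oxygenase, a gene of the NRF2 response and of macrophages, was higher in HC (108 ± 36.2 against 30.1 ± 6.996 FPKM among GFP+ cells, log2 1.79 ± 0.22, adjusted p = 0.000443). Among GFP- cells it was higher by log2 0.93, a call that ended when any of EC GFP+ replicate 1, the 3 EC GFP- libraries (the lowest 0.85), HC GFP+ replicate 1 and HC GFP- replicates 1 and 3 (0.87 and 0.90) was left out.

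Upstream of the factors, 9 of 30 tested flow sensors and members of the ERK5 route rose with GFP in EC and 2 fell. The shares over all tested genes were 6.96% and 6.51%, and the median of the list was 0.31. The rises numbered 4 without EC GFP+ replicate 3, 5 without EC GFP+ replicate 1 or 2 or EC GFP- replicate 1, and at most 12 without another. The falls were of Kcnj2 (log2 -0.67) and Pdcd10 (log2 -0.47, named outside the rule), of which 1 passed without EC GFP+ replicate 2 or 3 or EC GFP- replicate 1. With equal FPKM sums 14 rose and 0 fell, and with no filter or only the groups compared 5 rose. P2ry2, a receptor for ATP released under flow, rose (3.13 ± 0.411 against 0.615 ± 0.156 FPKM, log2 1.35 ± 0.16, limma adjusted p = 0.000418). Heg1, a junction protein of the CCM complex, which restrains MEKK3, rose as well (60.2 ± 1.77 against 28.0 ± 6.11 FPKM, log2 1.10 ± 0.15, adjusted p = 0.000852). The integrin gene Itgb1 rose by log2 0.46 ± 0.08 (adjusted p = 0.00355). In HC 1 of 30 rose, P2ry2 (log2 0.72), and 1 fell, where 2.98% of all tested genes rose and 1.28% fell. The P2ry2 call ended without any of 8 libraries and with the replicate block (adjusted p = 0.0509). The gene that fell was Flt4, which encodes VEGFR3 (38.9 ± 6.15 against 74.0 ± 11.7 FPKM, log2 -0.91 ± 0.15, adjusted p = 0.00496). Map2k5 and Mapk7, which encode MEK5 and ERK5, did not pass, with changes of 0.14 and -0.27 in HC and 0.02 and -0.03 in EC, and they are named outside the rule. Pan-endothelial markers rose with GFP in EC too, 8 of 15 with a median of 0.37 (4 without replicate 3 of either population, 5 without EC GFP- replicate 1 or EC GFP+ replicates 1 and 2, 1 at a time). The count was 13 with equal FPKM sums, and 5 with no filter or only the groups compared. Cdh5, Kdr, Pecam1 and Tek stand both among these markers and in the lists of flow genes. The part of these markers in the rise of Klf2, Klf4, Nos3 and Edn1 was not tested.

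Klf2, Klf4 and Klf6 are also among the genes that cells switch on when tissue is dissociated, and the arteries were treated with collagenase. In a list of 25 dissociation and immediate early genes, 3 of 24 tested rose with GFP in HC and 5 in EC, and none fell. Over all tested genes 2.98% rose in HC and 6.96% in EC. The list medians were 0.39 in each. In HC the list genes that rose were Nr4a1, Socs3 and Nr4a2. Their count was 1 when HC GFP+ replicate 3, HC GFP- replicate 1 or HC GFP- replicate 3 was left out. In EC they were Btg2, Dusp1, Nr4a1, Rhob and, outside the rule, Socs3. That count was 2 without EC GFP+ replicate 1 and 3 without EC GFP+ replicate 3, HC GFP- replicates 1 and 3, or EC GFP- replicates 1 and 3, each left out alone. It was 9 with equal FPKM sums, 3 with no filter and 2 with only the groups compared. In HC the call of Nr4a2 ended with the replicate block (adjusted p = 0.0712). The summed FPKM of the list was 1516 to 2115 in GFP+ against 1285 to 1470 in GFP- HC, and 1420 to 1623 in GFP+ against 1166 to 1234 in GFP- EC, with no overlap in either type. Nr4a1, an orphan receptor induced within minutes, rose in HC (74.7 ± 11.8 against 41.0 ± 1.10 FPKM, log2 0.84 ± 0.15, limma adjusted p = 0.0101). Btg2, an early growth-arrest gene, rose in EC (62.9 ± 3.31 against 37.6 ± 1.35 FPKM, log2 0.73 ± 0.09, adjusted p = 0.000608). Egr1 and Fos, named outside the rule as the best-known genes of this kind, did not pass. Egr1 differed by 0.03 in HC and 0.04 in EC, and Fos by 0.29 and 0.51. Between HC and EC, 1 list gene was higher and 2 lower in GFP+ HC (8.21% and 6.09% of all tested genes). Among GFP- cells 1 was higher and none lower (2.36% and 1.93%). The list medians there were 0.29 and 0.28, against 0.052 and 0.014 over all genes. Zfp36 was the higher gene in both (log2 1.40 and 1.37), and the second call ended without any EC GFP- library. The part of dissociation in the rise of Klf2 and Klf4, or in the level of Klf6, was not tested.

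Among the other 12 Klf genes, 10 were tested. With GFP, 1 fell in HC (1.28% of all tested genes), the erythroid factor Klf1 (0.822 ± 0.0598 against 3.06 ± 1.40 FPKM, log2 -1.10). Klf1 is itself in the list of erythroid markers, so its fall is part of theirs. Its call also ended with a pseudocount of 0.1 (log2 -1.69). In EC 2 rose (6.96% of all tested genes), Klf11 (log2 0.49) and Klf3 (log2 0.44). All 3 calls ended without single libraries: Klf1 when EC GFP+ replicate 1, any HC GFP+ library or HC GFP- replicates 1 or 2 were left out (-0.84 to -1.16), Klf11 for each EC library except EC GFP- replicate 2 (0.44 to 0.51), and Klf3 for replicates 1 and 3 of both EC populations (0.37 to 0.43). Of the Klf genes, Klf2 and Klf4 were thus the only ones whose GFP changes passed in both cell types and kept their calls in every alternative run.

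**Figure D4:**
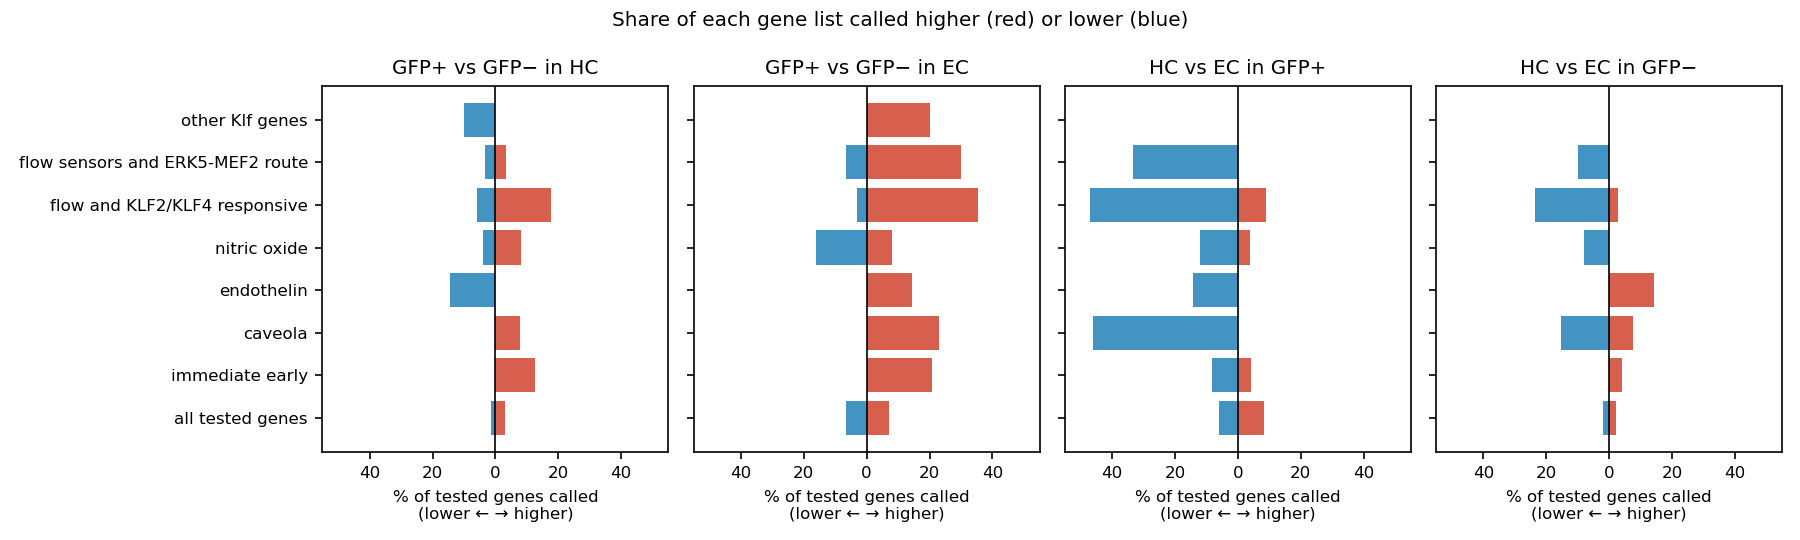
Share of the tested genes of each list (rows) called higher (red, to the right) or lower (blue, to the left) in 4 comparisons, in percent of tested genes (horizontal axes), with all tested genes in the last row. The flow and KLF2/KLF4 responsive list has 12 of 34 genes called higher with GFP in EC, and the caveola list 6 of 13 called lower in HC among GFP+ cells.

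The genes most like each member were sought by the root mean square difference of centred log2(FPKM + 1) over the 12 libraries, among 8917 genes with a mean of 5 FPKM or more. Nearest to Klf2 was Clec14a (0.139), a glycoprotein of endothelium that is also in the list of pan-endothelial markers. Mansc1 (0.139) and Hid1 (0.141) followed closely. The spread of Klf2 itself by this measure was 0.571. Nearest to Nos3 was Mmrn2 (0.0686), a matrix protein of endothelium, at 181 and 95.6 FPKM on average in EC with and without GFP, and 89.0 and 69.2 in HC. Nearest to Edn1 was Calcrl (0.210), the receptor of adrenomedullin, at 301, 96.9, 159.7 and 82.0 FPKM in the same order. Klf4 was nearest to Col13a1 (0.194), Cav1 to Nedd9 (0.153) and Cav2 to Efnb2 (0.127), the arterial ephrin-B2. Among the 10 genes themselves Klf2 and Klf4 were each other's nearest (0.214), as were Cav1 and Cav2 (0.240). Edn1 and Nos3 were both nearest to Klf2 (0.339 and 0.304).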

How the data were processed

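The 12 RNA-seq libraries, 3 from each sorted population, were compared, with populations and replicate numbers taken from the sample titles. Per the labels' protocols the pools are independent biological samples, RNA was poly(A) selected, and libraries were made with an NEBNext Ultra kit. The authors deposited FPKM values per gene symbol. The submitters' processing notes name DESeq, edgeR, featureCounts and Cufflinks, and build mm9. What each did, whether counting used strand, which annotation and aligner served, and any scaling were not given in the sources used here. FPKM keeps no read number, so the depth is not known, and no test for counts was applied. P-values measure the spread between pools.

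A gene was tested if 3 or more of the 12 libraries reached 1 FPKM, which kept 13278 of 33531. Values were taken as log2(FPKM + 1) and tested in R 4.3.3 by limma 3.58.1, in 1 model of 4 group means with 8 residual degrees of freedom and an intensity trend. The fit was tested on simulated data. The 5 comparisons were GFP in HC, GFP in EC, HC against EC at each GFP state, and the difference of the GFP effects. P-values were two-sided, with the Benjamini-Hochberg adjustment made across the 13278 genes and a threshold of 0.05. The members and lists were chosen with earlier results of these data known. Named from each list were up to 4 genes past the threshold, lowest p first, and the first of the opposite direction; not all of them are described, and 1 gene is not reported here. Alternatives were a pseudocount of 0.1, no filter, a mean FPKM of 5 or more, equal FPKM sums, quantile normalization, a replicate block, only the groups compared, and each library left out. Treating stray zeros as missing was added after seeing the data. Sequences are from RefSeq, build GRCm38.p6.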

Additional observations from a re-analysis of the deposited data

How the results depend on the processing

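The rises of Klf2, Klf4 and Edn1 with GFP in HC, and of these with Nos3 in EC, passed in all 20 alternatives run for each, as did the lower Cav1 in HC at either GFP state and the lower Cav2, Nos3 and Edn1 in GFP+ HC. Of 990 values of the 10 genes under alternatives, 16 lost and 5 gained a call and none reversed a call. The counts of genes called with GFP were 3 higher in HC and 4 higher in EC without any single library, and 0 lower. Among GFP+ cells, the count higher in HC than in EC, 1, was 0 with no filter, with equal sums and with the replicate block (Klf6), and 0 to 1 without single libraries; the count lower was 4 to 5. Among GFP- cells, the count lower, 2, was 1 with only the groups compared and 1 to 3 without single libraries, and the count higher was 0 to 1. For the difference of the GFP effects both counts were 0 in each alternative. Without a library the other groups stand in for the spread of the thinner group. The cause of these changes was not tested.

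The replicate numbers are not stated to mark shared embryos. Deviations of same-numbered libraries correlated across genes at -0.0571 to 0.270 between GFP+ and GFP- HC, -0.0308 to 0.103 in EC, 0.0523 to 0.0845 between HC and EC among GFP+ and -0.0615 to 0.200 among GFP- cells, so the block is an alternative only. Of 6 samples 2, 4, 5 and 3 correlated best with their own number in these comparisons. With the replicate block Klf6 among GFP+ cells did not pass (adjusted p = 0.0521) and Nos3 among GFP- cells passed (adjusted p = 0.0299), and no other call of the 10 genes changed. Among named list genes the block ended the calls of P2ry2 and Nr4a2 in HC with GFP (adjusted p = 0.0509 and 0.0712), and of Ehd3 and Gnai2 among GFP- (0.0629 and 0.0747) and Akt1 among GFP+ cells (0.0553). Scaling to equal sums moved the median of all genes from -0.034 to 0.138 between GFP+ and GFP- EC and from 0.014 to 0.137 between HC and EC among GFP- cells. With 3 pools a group and unknown depth, small differences of Klf7, Klf10 and Ece1 could not be resolved.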

Other observations

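Zeros of the kind seen for Klf10 were not peculiar to it. In 34 genes listed above 0 in at least 9 of the 12 libraries, with a median of 10 FPKM or more there, 51 values in all were exactly 0. Trp53, which encodes the tumour suppressor p53, had 1 such value against a median of 139 FPKM, and Flna, which encodes the actin cross-linker filamin A, had 1 against 266. These genes were picked after their values were seen. None of the other 9 genes described here had a 0 in any library.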
